A study of Mus musculus with 54 samples.

Results

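In mouse F1 hybrid cells that carry one 129 and one Cas (Mus castaneus) genome, 668 of 43941 autosomal windows of 50 kb (1.52%) had opposite allelic differences in replication timing in embryonic stem cells (ESCs) and in mouse embryonic fibroblasts (MEFs). In 435 of them the 129 allele replicated earlier in ESCs and the Cas allele earlier in MEFs, and in 233 the order was the reverse. The windows were chosen from the deposited timing values. For each profile the allelic difference was taken as the 129 value minus the Cas value, it was averaged per line or embryo and then over the 5 ESC lines and over the 4 MEF embryos, and a window entered the set when both means were at least 0.5 in size and of opposite sign. The ESC and MEF differences therefore describe the set and were not tested. ESCs on feeders and neural precursor cells (NPCs) did not enter the choice, and neither did timing as the mean of both alleles.

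The series holds 54 Repli-Seq libraries, an early and a late S phase library for each of 27 profiles. The ESCs in 2i medium (feeder-free, with LIF and inhibitors of MEK and GSK3) were the female lines F121 (1 profile), F121-6, F121-9 and Cas129 and the male line F123 (2 profiles each). F121-6 and F121-9 had also been grown on inactivated MEF feeders (2 profiles each), and NPCs had been taken on day 11 from F121-9 (1 profile) and Cas129 (2 profiles). Fibroblasts of 4 embryos gave 2 profiles per embryo, and the sex label is female for embryos 1 and 2 and male for the other 2. The cross is written with 129 first for the F121 lines and F123, and with Cas first for Cas129 and all 4 embryos, so in MEFs strain and parent of origin cannot be told apart. V6.5 ESCs (129 and C57B6, 1 profile) and an extraembryonic endoderm line (XEN, C57B6 and Cas, 2 profiles of 1 line) have other parents and entered no test. Ages of the embryos are not given in the sources used here.

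Replication timing is the order in which stretches of the genome are copied during S phase. Early replication usually goes with open, transcribed chromatin and late replication with silent chromatin at the nuclear lamina, and many domains change their time when stem cells differentiate. In an F1 hybrid both genomes share one nucleus, so the alleles are compared under the same conditions in the same cells. The windows described here are those where the allele that was ahead in one cell type was behind in another.

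Each deposited value is a log ratio of early to late signal for 1 allele, higher when replication is earlier. The base is not stated and is read here as log2, so sizes depend on that reading and signs do not. The files hold no read counts, and the depth of each library is unknown. ESC and NPC columns had autosomal means near -0.60 and MEF columns near -0.14, so timing levels are not on one scale across these cell types, while differences between alleles are taken within a profile. Timing at 11 marker genes was set against the labelled cell types. At Zfp42, an ESC gene, it was 1.86 in ESCs, -3.77 in NPCs and -3.89 in MEFs, and at Prrx1, a mesenchymal gene, -2.31 in ESCs and 2.68 in MEFs. Of the 4 NPC genes, Sox1 and Pax6 were earliest in NPCs (1.95 and 0.95). Values at Nes and Olig2 were slightly higher in MEFs (3.51 and 2.00) than in NPCs (3.41 and 1.63). These gaps are smaller than that between the means of MEF and NPC columns, so the order at Nes and Olig2 is not settled. On the X chromosome the 129 values hardly varied in embryo 1, labelled female (SD over windows 0.25 and 0.30), and in embryo 4, labelled male (0.19 and 0.27), against 1.32 to 1.34 in embryos 2 and 3, so embryos 1 and 3 go against their sex labels. Without embryos 1 and 3 the same rule found 758 windows, of which 587 were among the 668.

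Promoters of 4 genes are shown because their starts lie in reversed windows, with both directions and both rich and poor CG content among them. Each is the 250 bases before the RefSeq start on GRCm38.p6, the C57BL/6J reference, so none is the 129 or the Cas allele, and CG dinucleotides are in capitals. Tcl1 (chr12:105222738-105222987, minus strand) and Slit3 (chr11:35121206-35121455, plus strand) lay in regions where 129 was earlier in ESCs. Slc1a3 (chr15:8710808-8711057, minus strand) and Mad2l1 (chr6:66534971-66535220, plus strand) lay in regions where Cas was earlier in ESCs.
Tcl1: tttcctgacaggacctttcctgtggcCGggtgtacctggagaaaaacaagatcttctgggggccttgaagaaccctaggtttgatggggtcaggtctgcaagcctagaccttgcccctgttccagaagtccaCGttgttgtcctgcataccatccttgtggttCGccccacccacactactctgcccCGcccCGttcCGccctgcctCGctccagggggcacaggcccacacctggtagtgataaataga
Slit3: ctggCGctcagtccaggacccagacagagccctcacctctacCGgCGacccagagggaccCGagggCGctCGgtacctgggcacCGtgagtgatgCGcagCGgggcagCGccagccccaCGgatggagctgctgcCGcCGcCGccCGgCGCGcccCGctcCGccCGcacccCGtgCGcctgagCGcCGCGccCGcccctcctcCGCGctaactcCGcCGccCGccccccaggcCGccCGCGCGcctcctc
Slc1a3: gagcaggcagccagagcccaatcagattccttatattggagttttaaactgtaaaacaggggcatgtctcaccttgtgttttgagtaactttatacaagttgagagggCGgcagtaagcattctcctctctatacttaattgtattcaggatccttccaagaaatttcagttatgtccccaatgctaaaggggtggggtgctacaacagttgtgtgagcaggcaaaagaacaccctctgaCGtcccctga
Mad2l1: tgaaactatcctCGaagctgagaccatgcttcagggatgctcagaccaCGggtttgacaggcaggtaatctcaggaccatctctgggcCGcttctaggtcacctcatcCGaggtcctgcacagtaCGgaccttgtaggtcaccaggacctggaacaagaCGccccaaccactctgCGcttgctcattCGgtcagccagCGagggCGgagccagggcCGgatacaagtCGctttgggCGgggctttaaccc
CG occurs 7 times in the Tcl1 sequence, 35 times in Slit3, 2 times in Slc1a3 and 13 times in Mad2l1. Their GC contents are 57.6%, 78.8%, 44.8% and 58.8%. The motif CG reads the same on both strands. At least 10 CG were found in 45 of 133 promoters with a start in a reversed window (33.8%), in 128 of 365 promoters in windows with differences of equal sign (35.1%) and in 7821 of all 14572 autosomal promoters of this length (53.7%). At least 1 CG was present in 91.7%, 88.8% and 93.5%, and the median GC content was 50.4%, 49.6% and 56.4%. Promoters in reversed windows thus had CG and GC contents close to those in equal-sign windows and below those of all promoters.

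Reversed windows were a minority of the windows with allelic differences in either cell type. They made up 5.58% of the 11965 windows with an ESC difference of at least 0.5 and 10.8% of the 6204 windows with such a MEF difference. Among windows that passed in both cell types, 668 were reversed (29.6%) and 1589 had equal sign. The median size in the reversed windows was 0.80 in ESCs (quartiles 0.63 and 1.16) and 0.67 in MEFs (quartiles 0.56 and 0.91). Just inside the threshold was chr1:138150001-138200000, with -0.50 in ESCs and 0.75 in MEFs. Just outside was chr6:65950001-66000000, with -0.54 in ESCs and 0.50 in MEFs, where the unrounded MEF value fell below the threshold.

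**Figure D1:**
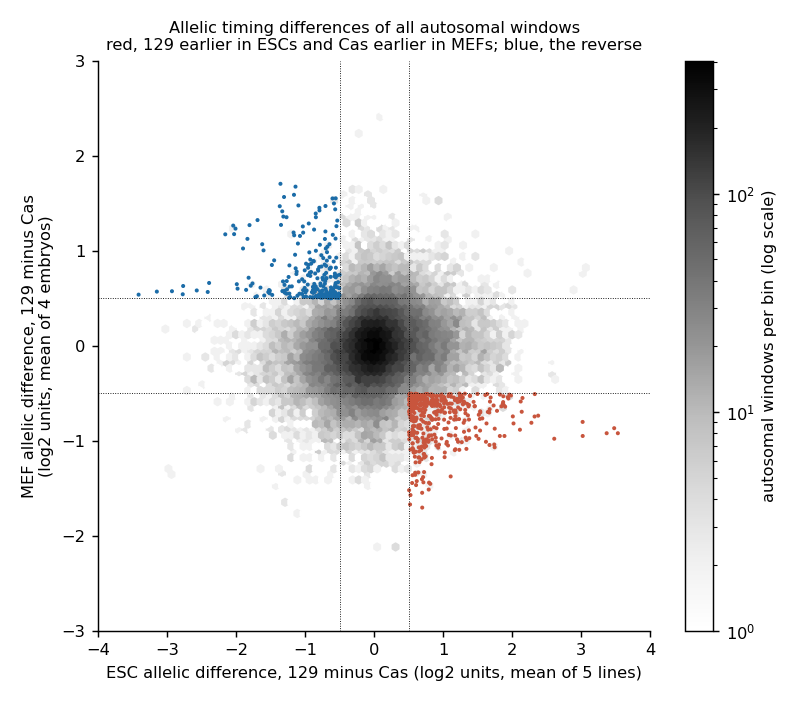
Mean allelic difference (129 minus Cas, read as log2) of every autosomal window in ESCs in 2i on the horizontal axis and in MEFs on the vertical axis, shaded by the number of windows per bin, with reversed windows as coloured points. The 435 windows with 129 earlier in ESCs sit at the lower right and the 233 with Cas earlier in ESCs at the upper left, outside the threshold of 0.5 on both axes.

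The windows lay in runs. Joined over gaps of at most 2 windows, they formed 165 regions, 104 with 129 earlier in ESCs and 61 with Cas earlier, and 64 regions held at least 4 windows (200 kb) and 484 of the 668 windows. The median region held 3 windows, 44 held 1, and the longest held 26. That longest region, chr1:21050001-22500000, spans Rims1, a presynaptic active zone protein, the potassium channel gene Kcnq5 and the oocyte and embryo genes Khdc1a, Khdc1b and Khdc1c. Its allelic difference was 0.85 ± 0.17 in ESCs (SD, n = 5 lines) and -0.80 ± 0.07 in MEFs (SD, n = 4 embryos). Of the 165 regions 2 lay within 500 kb of a region of the other direction, and how many such regions placement alone would give was not tested. The share of windows that were reversed ran from 0.393% on chromosome 19 to 3.65% on chromosome 15 (65 of 1783), where 1.07% had equal sign.

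Around the 64 longer regions both differences faded with distance from the peak window, where their summed size was largest. With signs turned so that the ESC peak is positive, the median at the peak was 1.08 in ESCs in 2i, 0.97 on feeders, 0.07 in NPCs and -0.77 in MEFs. At 500 kb to the right the same medians were 0.28, 0.23, 0.07 and -0.26, and at 500 kb to the left 0.16, 0.08, 0.08 and -0.27. Since the peak was chosen for its size, the fall from it is a description of extent.

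**Figure D2:**
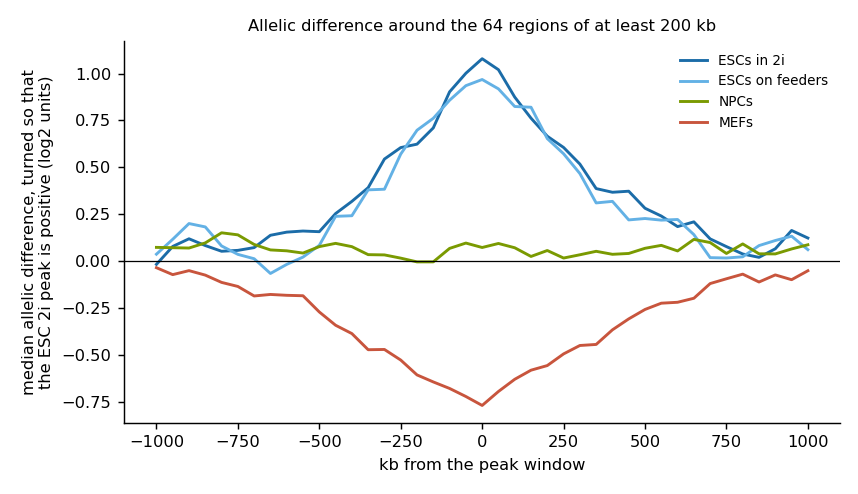
Median allelic difference over the 64 regions of at least 200 kb (vertical axis, read as log2, turned so that the ESC peak is positive) against distance from the peak window in kb. ESCs in 2i and on feeders peak near 1.08 and 0.97, MEFs dip to -0.77, and NPCs stay near 0.07.

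The 10 longer regions of each direction with the largest summed difference are described by name. In all 20 the 5 ESC lines had one sign and the 4 embryos the other, a property that the choice of windows favours. F121, F121-6 and F121-9 share a name and a cross label, so the 5 lines may not be independent. Values are means over the reversed windows of a region, given first for F121, F121-6 and F121-9, then for F123 and last for Cas129, followed by embryos 1 to 4.

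Among regions with 129 earlier in ESCs, the largest ESC difference was at chr3:14750001-15350000, which holds the carbonic anhydrase genes Car2, Car3 and Car1, whose products interconvert carbon dioxide and bicarbonate. The 5 ESC lines had 2.20, 2.42, 2.89, 1.90 and 1.89, and the embryos -0.90, -0.76, -0.81 and -0.96. The 129 and Cas alleles stood at -0.59 and -2.85 in ESCs and at -1.53 and -0.67 in MEFs. The Cas allele was thus far behind in ESCs and ahead in MEFs. At Tcl1 (chr12:105200001-105500000), a coactivator of Akt that is highly expressed in pluripotent cells, the lines had 1.70, 1.75, 1.44, 1.25 and 1.15 and the embryos -0.73, -0.86, -0.89 and -0.92. This region also holds Tcl1b4, and 2 of the 6 measured genes of the Tcl1 family, which lie side by side, were in reversed windows. All 6 had opposite signs of some size in ESCs and MEFs, but the cluster surrounds windows chosen for that, and 8447 of 18217 protein-coding genes (46.4%) had opposite signs of some size.

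At Slit3, a secreted guidance cue, with Spdl1, a spindle protein, and Dock2, an activator of Rac in leukocytes (chr11:34650001-35200000), the lines had 1.59, 1.31, 1.08, 1.53 and 1.51. The embryos had -0.53, -0.56, -0.59 and -0.90 there. Both alleles of this region were earlier in MEFs than in ESCs, 129 going from -0.52 to 2.28 and Cas from -1.93 to 2.93. By contrast, at Ston2, an endocytic adaptor, Sel1l, a part of the machinery that degrades misfolded endoplasmic reticulum proteins, and Gtf2a1, a general transcription factor subunit (chr12:91350001-92000000), the MEF difference was the larger. The lines had 0.52, 0.91, 0.34, 1.06 and 0.56 and the embryos -1.55, -1.21, -1.22 and -1.29.

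The 6 other regions of this direction had ESC means between 1.09 and 1.76 and MEF means between -0.97 and -0.59. They lay at Myot, a muscle Z-disc protein, Npy6r and Dcp2, an mRNA decapping enzyme (chr18:44100001-44650000, 1.71 ± 0.33 and -0.86 ± 0.11), and at Pid1, near Dner, a Notch ligand, and Trip12, a ubiquitin ligase (chr1:83900001-84150000, 1.76 ± 0.61 and -0.59 ± 0.32). Tgs1, which trimethylates the caps of small nuclear RNAs, lay with Tmem68, near the tyrosine kinase gene Lyn, at chr4:3350001-3650000 (1.73 ± 0.33 and -0.60 ± 0.16). E2f7, a repressor of cell cycle genes, was the gene nearest to the peak of chr10:110350001-110700000, a region that overlaps Nav3 (1.22 ± 0.32 and -0.97 ± 0.19). The remaining pair overlapped no protein-coding gene, with Gm and Rik symbols passed over. The centre of the peak window of one was 376 kb from the choline transporter gene Slc5a7 (chr17:54500001-54750000, 1.54 ± 0.54 and -0.90 ± 0.22). That of the other was 292 kb from Dpp6, an auxiliary subunit of potassium channels (chr5:26400001-26750000, 1.09 ± 0.35 and -0.92 ± 0.30). Errors are SD over 5 lines and over 4 embryos, and no line or embryo crossed 0.

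Among regions with Cas earlier in ESCs, Slc1a3, a glial glutamate transporter, lay with Ranbp3l and near Nadk2 at chr15:8500001-9050000. The lines had -1.38, -1.40, -1.46, -1.63 and -1.58, the narrowest ESC spread of the 20 regions (SD 0.11, n = 5), and the embryos 1.13, 0.89, 1.23 and 1.18. The alleles traded places, 129 going from 0.14 in ESCs to 1.29 in MEFs and Cas from 1.63 to 0.18. The promoter printed above for this gene held the fewest CG of the 4. At Mad2l1, a spindle checkpoint protein, next to the pheromone receptor genes Vmn1r32 and Vmn1r33 (chr6:66000001-66600000), the lines had -1.95, -2.56, -1.85, -2.11 and -1.33 and the embryos 0.38, 0.66, 0.62 and 0.69. At Trpc7, a cation channel, Smad5, a transducer of BMP signals, and Tgfbi, a matrix protein (chr13:56500001-56950000), the lines had -1.79, -1.68, -1.72, -1.98 and -1.94 and the embryos 0.70, 0.55, 0.54 and 0.48. At both the ESC difference was the larger.

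Fap, a serine protease of activated fibroblasts, its relative Dpp4 and the glucagon gene Gcg lay together at chr2:62350001-62600000, with -1.77, -1.86, -1.85, -1.20 and -1.93 in the lines and 0.36, 0.77, 0.84 and 0.50 in the embryos. Other regions had MEF differences as large as those in ESCs or larger. At Vta1, which acts in multivesicular body sorting, Gje1 and the neuromedin B receptor gene Nmbr (chr10:14400001-14850000) the means were -1.14 ± 0.15 in ESCs and 1.20 ± 0.21 in MEFs. At Parp8 and Emb, a cell adhesion protein (chr13:116900001-117500000), they were -0.94 ± 0.15 and 1.13 ± 0.09. At Nudt12, an NADH hydrolase, and Pdzph1 (chr17:58900001-59200000) they were -0.65 ± 0.32 and 1.25 ± 0.22.

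The last 3 regions of this direction differed in how well the ESC lines agreed. The lines were close to each other at Zhx2, a repressor of alpha-fetoprotein, Derl1 and Tbc1d31 (chr15:57300001-57950000), with -1.13 ± 0.15 in ESCs and 0.73 ± 0.04 in MEFs. They were spread near Irx1, a homeobox gene 483 kb from the centre of the peak window (chr13:71300001-71700000), with -0.35, -1.63, -1.51, -2.58 and -1.68, against 0.94, 1.36, 1.28 and 0.94 in the embryos. They were also spread near Cts3 and Ctsm, placental cathepsin genes, and Zfp808 (chr13:61600001-61900000), with -0.71, -0.73, -2.01, -0.34 and -1.82, and the embryos there had 0.62, 1.30, 1.33 and 1.93.

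**Figure D3:**
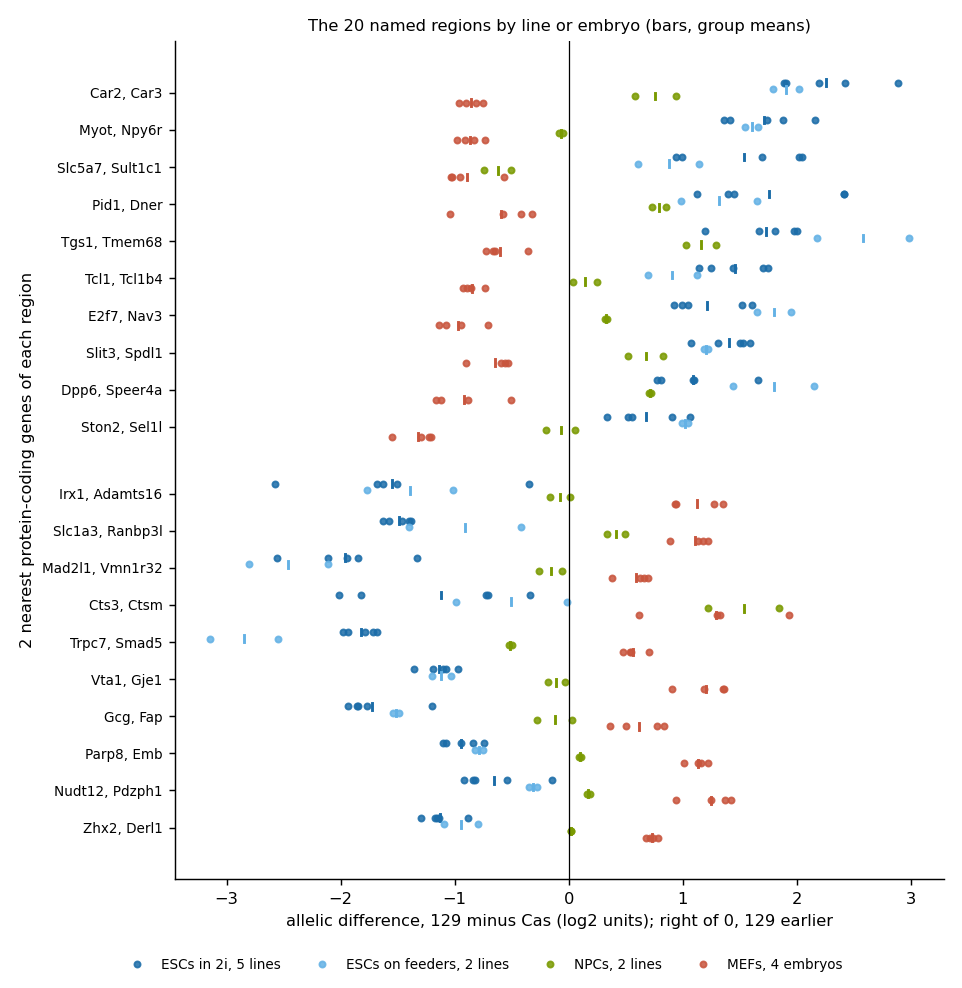
Allelic difference (129 minus Cas, read as log2, horizontal axis) in the 20 named regions, 1 row per region, with 1 point per line or embryo and bars for group means. ESC lines in 2i and MEF embryos lie on opposite sides of 0 in every region, points for ESCs on feeders lie on the ESC side, and most NPC points lie nearer to 0.

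The single lines and embryos are those whose means chose the windows, so the signs they share are favoured by that choice and are no test of the order of the cross. Cas129, the only ESC line with Cas named first, had the sign of the mean of the other 4 lines in 657 of 668 windows. Across single lines the ESC sign was seen in 649 windows in F121, 642 in F121-6, 663 in F121-9 and 648 in F123, and all 5 lines shared it in 593. The 4 embryos shared 1 sign in 658 windows. In 42 windows of 17 regions both differences were at least 1 in size, among them 7 windows at Slc1a3, 6 at Vta1 and 5 near Irx1.

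ESCs on feeders, which the choice did not use, kept the ESC order in most windows. They are the same F121-6 and F121-9 lines that gave 2i profiles, so this tests another culture of those lines and not other lines. Their mean difference was called against 0 with the ESC sign in 393 of 668 windows (58.8%) and with the opposite sign in 1, where called means limma over all autosomal windows, Benjamini-Hochberg adjusted p below 0.05 and a size of at least 0.5. Over all autosomal windows 22.5% were called with the sign of the ESC mean and 1.88% with the opposite sign. Since the windows were chosen for a large ESC difference, the nearer comparison is with all windows of ESC difference at least 0.5 (54.1%) and with equal-sign windows (60.2%), and the reversed windows lay between these. The median turned difference was 0.76 on feeders and 0.80 in 2i. F121-6 had the ESC sign in 561 windows (84.0%), F121-9 in 616 (92.2%) and both in 523 (78.3%). Replicate profiles of F121-6 on feeders correlated at 0.63 over the 668 windows, and those of F121-9 on feeders at 0.85, as a description over windows that are not independent. Without embryos 1 and 3 the count was 367.

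In all 20 named regions both feeder lines had the ESC sign. At the peak window of the Trpc7 region the feeder mean was -4.45 ± 0.19 (SE, limma adjusted p 2.88e-08), and at that of the Car2 region it was 3.74 ± 0.26 (adjusted p 6.84e-07). The feeder difference was called at 18 of the 20 peak windows, beside 54.1% of all windows with an ESC difference of at least 0.5. Peak windows were picked for a large summed difference, which favours such calls. The exceptions were the windows near Cts3 (-0.71 ± 0.55, adjusted p 0.379), where the region means of F121-6 and F121-9 were -0.02 and -0.99, and near Nudt12 (-0.21 ± 0.23, adjusted p 0.550). At the Slc1a3 peak (-1.01 ± 0.24, adjusted p 0.00652) the call rests on F121-9, since without its feeder profiles the value was -0.33 (adjusted p 0.300). At the Pid1 peak (1.50 ± 0.33, adjusted p 0.00415) it was 1.27 without them (adjusted p 0.0686). The 1 window called with the opposite sign was chr1:138150001-138200000 in the region of Nek7, a mitotic kinase, with 1.81 in F121-6 and 0.10 in F121-9, and it is also the window nearest to the threshold among the reversed windows. With F121-6 as the only feeder line 14 windows were called with the opposite sign.

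Among other long regions the feeder difference was much smaller than that in 2i at the stem cell surface marker gene Prom1 and at Tapt1 (chr5:43450001-44600000, 21 windows), with 0.06 and 0.26 in the feeder lines against 0.91 ± 0.20 in 2i (SD, n = 5 lines). It was also smaller at Sgcd, a part of the dystrophin complex (chr11:47350001-48050000), with -0.07 and 0.42 against 0.73 ± 0.38. Both were chosen after their values were seen. In F121-6 itself the 2i value at Sgcd was 0.11. Over the 64 longer regions the mean of the feeder lines had the ESC sign in 62, and both lines had it in 59.

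NPCs leaned a little to 129 earlier in windows of both directions. That is the ESC order in windows with 129 earlier in ESCs and the MEF order in the others. The NPC mean had the ESC sign in 263 of 435 windows with 129 earlier in ESCs and in 104 of 233 with Cas earlier. The median turned differences of the NPC mean were 0.08 and -0.05 in these sets. Not turned, the median of 129 minus Cas in NPCs was 0.07 over the 668 windows and 0.01 over all autosomal windows. Counts over all 668 windows pool both directions. F121-9 NPCs had the ESC sign in 353 of 668 windows (52.8%) and Cas129 NPCs in 385 (57.6%), against 75.5% and 77.6% in equal-sign windows. Both NPC lines had the ESC sign in 268 windows, both the MEF sign in 198, and 202 were split. The median turned difference was 0.02 in F121-9 NPCs and 0.06 in Cas129 NPCs, against 0.33 and 0.32 in equal-sign windows. The mean of the NPC lines was under 0.5 in size in 545 windows (81.6%), against 61.3% of equal-sign windows and 85.4% of all autosomal windows. It was at least 0.5 with the ESC sign in 75 windows and with the MEF sign in 48. With 129 earlier in ESCs these counts were 65 and 26, and with Cas earlier 10 and 22. Cas129 NPC replicates correlated at 0.29 over these windows, where allelic differences were small.

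NPC differences were called in few windows, 14 with the ESC sign (2.10%) and 5 with the MEF sign (0.749%), beside 2.16% and 0.692% of all autosomal windows and 4.54% and 0.577% of windows with an ESC difference of at least 0.5. In equal-sign windows 14.0% were called with the ESC sign. At an unadjusted p below 0.05, 139 windows passed in either direction. These counts moved with single lines. The count with the ESC sign was 2 without F121-9 NPCs, 3 without Cas129 NPCs, 9 without embryo 1, 2 or 3, 5 without embryos 1 and 3, and 24 without either set of feeder profiles, since all groups share 1 estimate of the spread.

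By region, both NPC lines had the ESC sign in 28 of the 64 longer regions and the MEF sign in 20, and 16 were split. Over all 165 regions these counts were 57, 57 and 51, so neither order prevailed. NPC values had the ESC sign at Tgs1 (1.29 in F121-9 and 1.03 in Cas129), at Car2 (0.94 and 0.58), at Pid1 (0.85 and 0.73), at Slit3 (0.83 and 0.52), near Dpp6 (0.70 and 0.72) and at Trpc7 (-0.52 and -0.50). F121-9 NPCs have 1 profile, and the Cas129 replicates differed, with 0.0069 and 1.04 at Slit3 and 0.085 and 1.36 near Dpp6. Of the 20 peak windows the NPC difference was called at that of Trpc7 alone (-1.13 ± 0.19 SE, limma adjusted p 0.00923), and without Cas129 NPCs it was -0.92 (adjusted p 0.175). NPCs had the MEF sign near Cts3 (1.84 and 1.22), near Slc5a7 (-0.50 and -0.74) and at Slc1a3 (0.49 and 0.33). Near Slc5a7 the Cas129 replicates themselves differed in sign (0.23 and -1.71). Near Cts3 the peak value of 2.00 ± 0.55 did not pass (adjusted p 0.0668). The 5 windows called with the MEF sign lay near Mtrr (2 windows, 1.16 and 1.20, chr13:68400001-68500000), near Pik3c3 on chromosome 18 (2 windows) and near Csmd3 on chromosome 15 (1 window). In the Mtrr region F121-9 and Cas129 NPCs had 1.04 and 1.32, beside -0.82 ± 0.40 in ESCs (SD, n = 5) and 0.92 ± 0.43 in MEFs (SD, n = 4). NPC values near 0 in both lines were the commoner case, as at Zhx2 (0.02 and 0.02), Parp8 (0.11 and 0.09) and Myot (-0.08 and -0.05).

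**Figure D4:**
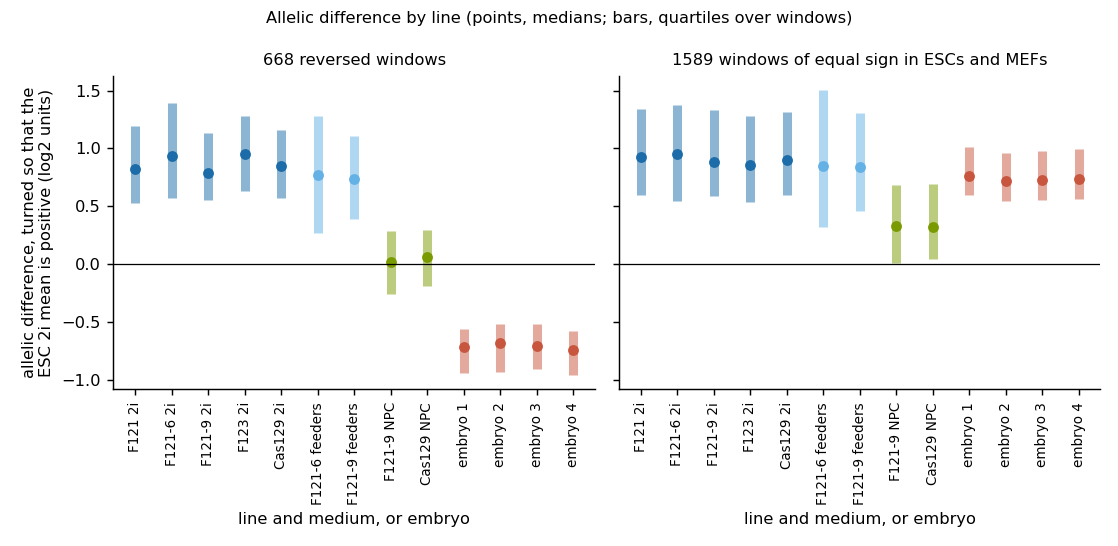
Allelic difference per line or embryo (vertical axis, read as log2, turned so that the ESC mean is positive), as the median (point) and quartiles (bar) over the 668 reversed windows on the left and the 1589 equal-sign windows on the right. On the left, medians are 0.77 and 0.73 on feeders, 0.02 and 0.06 in the NPC lines and below 0 in all 4 embryos, whereas on the right the NPC medians are 0.33 and 0.32.

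The reversed windows lay in late-replicating sequence in ESCs more often than windows in general. Timing, the mean of both alleles, was below 0 in 490 of 668 windows in ESCs (73.4%), against 74.4% of equal-sign windows and 57.1% of all autosomal windows. The median was -1.39 in ESCs, -1.74 in NPCs and -0.61 in MEFs, against -0.66, -0.68 and -0.02 over all windows. No protein-coding gene overlapped 47.5% of reversed windows, against 51.7% of equal-sign and 42.2% of all windows.

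From ESCs to MEFs, timing was called earlier in 248 reversed windows (37.1%) and later in 95 (14.2%), by limma at an adjusted p below 0.05 and a size of at least 1. Over all autosomal windows 30.4% were called earlier and 13.9% later. The shares were 31.7% and 15.1% in equal-sign windows, and 34.8% and 17.5% in windows with an ESC difference of at least 0.5. The split in reversed windows depends on how the columns are set against each other. With the median of each profile set to 0 it was 163 earlier and 157 later, beside 8313 and 12180 over all windows, and after quantile normalization 172 and 145, beside 9056 and 9721. From ESCs to NPCs, whose columns had similar autosomal means, 138 windows were called earlier (20.7%) and 159 later (23.8%), against 16.4% and 16.2% of all windows. In equal-sign windows these shares were 16.9% and 24.1%, and in windows with an ESC difference of at least 0.5 they were 18.0% and 21.9%. The share of later calls was thus close to that in equal-sign windows. Of the 20 peak windows 10 were called for MEF timing, 9 with profile medians at 0 and 8 after quantile normalization, and the others did not pass both the p and the size asked.

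Slit3 had the largest shift of the named peaks toward early replication. Timing at its peak window was 3.90 ± 0.22 (SE) higher in MEFs than in ESCs (limma adjusted p 1.38e-10), and the whole region stood at -1.22 in ESCs, 1.23 in NPCs and 2.60 in MEFs. Near Cts3 timing fell by 2.39 ± 0.30 in MEFs (adjusted p 2.55e-06). At Vta1 it fell by 4.01 ± 0.51 in NPCs (adjusted p 7.68e-06), where both alleles were late (-2.58 for 129 and -2.47 for Cas), and by 1.54 ± 0.41 in MEFs (adjusted p 0.00327). At Slc1a3 the MEF change of -0.15 ± 0.16 did not pass (adjusted p 0.405), nor did that at Tcl1 (-0.06 ± 0.17, adjusted p 0.755). These values move with the scaling. With profile medians at 0 the MEF change was -0.78 ± 0.16 at Slc1a3 (adjusted p 0.000366) and -0.69 ± 0.17 at Tcl1 (adjusted p 0.00135), both below the size of 1 asked, and it was 3.28 ± 0.21 at Slit3, -3.02 ± 0.29 near Cts3 and -2.17 ± 0.40 at Vta1.

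**Figure D5:**
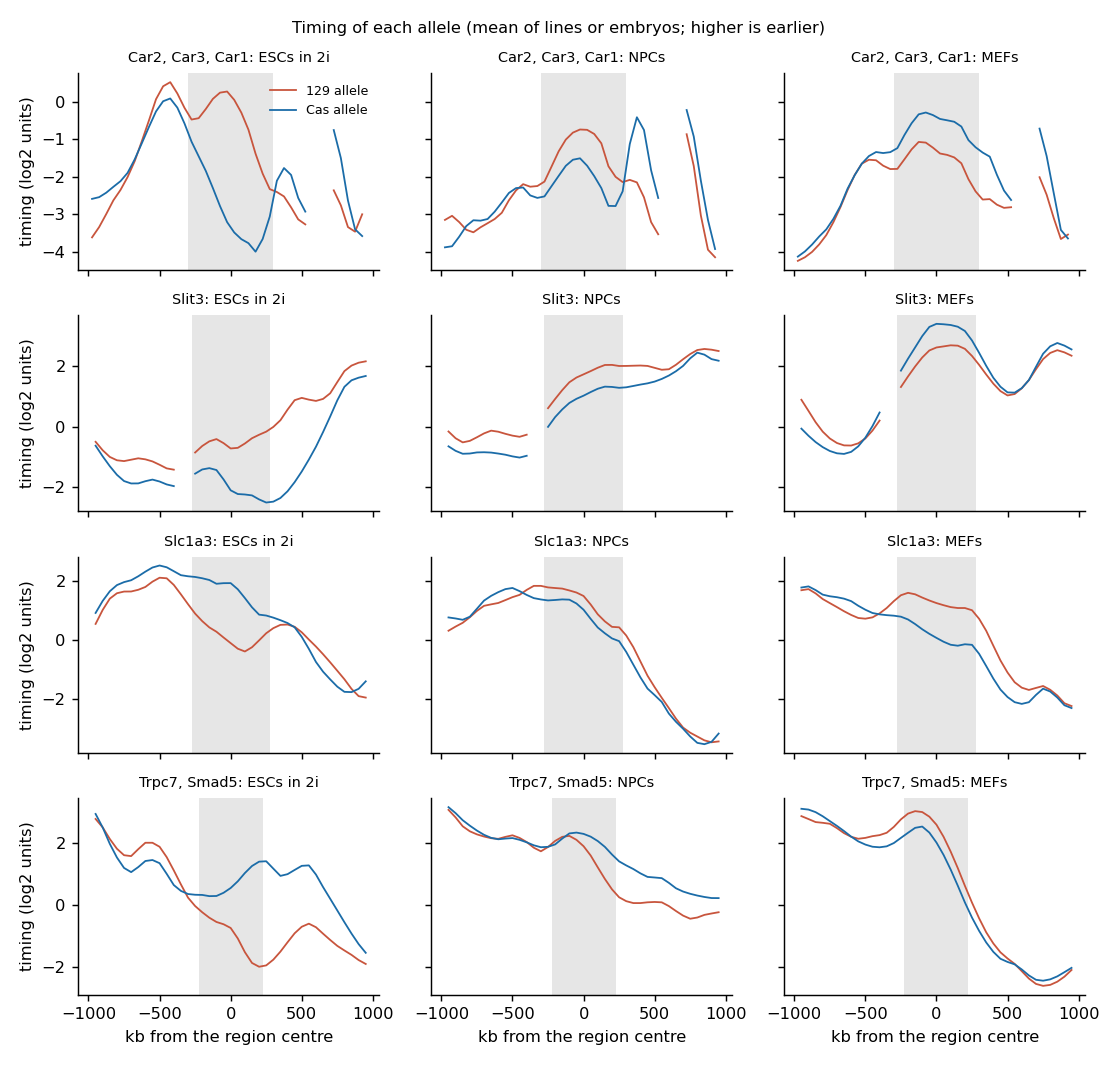
Timing of the 129 and the Cas allele (vertical axis, read as log2, higher is earlier) against distance from the region centre in kb at Car2, Slit3, Slc1a3 and Trpc7, as means over ESC lines in 2i, NPC lines and MEF embryos, with the span of the reversed windows in grey. The alleles are ordered one way in ESCs and the other way in MEFs within the grey span. At Slit3 and Trpc7 the peak window is the last of the span, and the ESC differences there were still 2.33 and -3.41.

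Which allele moved more from ESCs to MEFs could not be settled across scalings. As deposited, the allele that was later in ESCs changed more in 293 of 435 windows with 129 earlier and in 156 of 233 with Cas earlier, with medians of 1.49 and 1.46 toward early against -0.29 and -0.20 for the other allele. After quantile normalization the counts were 228 of 435 and 122 of 233, with medians of 0.93 and 0.93 against -0.77 and -0.72. With profile medians set to 0 they were 208 and 117, with 0.86 and 0.83 against -0.91 and -0.83. Under each of these scalings the median of the later allele rose and that of the earlier allele fell, a pattern that the choice of windows favours.

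Differences in lines with other parents were small or mixed. V6.5, with 129 and C57B6 alleles, had nearly equal values for both here, with a median size of 0.03 in reversed windows as in all windows. The size was at most 0.20 in the 20 named regions. V6.5 has 1 profile, and in groups with 2 profiles the noise between replicates was 0.30 to 0.75 (SD over all windows), well above that median. Whether the small V6.5 values reflect the alleles or how the columns were made was not tested. XEN cells, with C57B6 and Cas alleles, had a median size of 0.39 in reversed and 0.33 in all windows. Their C57B6 minus Cas difference had the sign of the ESC 129 minus Cas difference in 43.6% and 43.9% of reversed windows in the 2 profiles, against 67.3% and 67.7% of equal-sign windows. The largest XEN values in size among the 20 named regions were 2.90 at Car2, on the ESC side, and -1.55 near Dpp6, on the MEF side. Each is 1 line, and no test was made.

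Genes whose midpoint lies in a reversed window numbered 181 of 18217 measured protein-coding genes (0.994%), against 2.54% in equal-sign windows. Of lists for cell identity, 1 of 21 measured pluripotency genes (Tcl1), 1 of 29 fibroblast and matrix genes (Fap), 1 of 20 neural genes (Slc1a3) and 0 of 22 endoderm genes lay there. None of 49 imprinted genes and none of 25 replication genes did, and 3 of 13 carbonic anhydrase genes did, as 1 cluster. Among large families the counts were 6 of 828 olfactory receptors, 2 of 219 vomeronasal receptors, 2 of 319 zinc finger genes, 6 of 328 solute carriers, 1 of 23 cathepsins, 0 of 67 protocadherins, 0 of 22 cadherins and 0 of 58 serpins.

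At its own window, Tcl1 had 2.59, 1.93, 2.16, 2.28 and 1.78 in the ESC lines, 2.45 and 1.22 on feeders (mean 1.83 ± 0.24 SE, limma adjusted p 7.88e-05), 0.22 and 0.39 in NPCs, and -0.38, -0.64, -0.59 and -0.58 in the embryos. Fap had -1.76 ± 0.36 in ESCs (SD, n = 5) and 0.66 ± 0.22 in MEFs (SD, n = 4). On feeders Fap had -1.42 and -1.50 (mean -1.46 ± 0.21 SE, adjusted p 0.000146), and its timing was 1.45 ± 0.31 (SE) higher in MEFs than in ESCs (adjusted p 0.000562). With profile medians at 0 the timing difference at Fap was 0.82 ± 0.31 (adjusted p 0.0248) and after quantile normalization 0.80 ± 0.32 (adjusted p 0.0365), both below the size of 1 asked, so the call depends on the scaling. Slc1a3 had -1.62 ± 0.41 in ESCs, -0.99 and -1.34 on feeders, 0.40 and 0.22 in NPCs and 1.07 ± 0.09 in MEFs. Car2 and Car3 share a window, with 1.65 ± 0.34 in ESCs, 2.16 and 1.73 on feeders, 0.70 and 0.61 in NPCs and -0.70 ± 0.20 in MEFs. At Car1, 1 window of the same cluster, the ESC difference was 0.59 ± 0.26 and the feeder lines disagreed, with -0.98 and 0.73.

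Over the whole lists, feeder differences were called with 129 earlier and with Cas earlier at 1 and 0 of 21 pluripotency genes, 2 and 5 of 29 fibroblast genes, 1 and 3 of 20 neural genes, 3 and 3 of 22 endoderm genes, 5 and 5 of 49 imprinted genes, 3 and 2 of 13 carbonic anhydrase genes and 3 and 0 of 25 replication genes. Over all autosomal windows 12.2% were called with 129 earlier and 12.2% with Cas earlier. From ESCs to MEFs timing was called earlier at 21 of 29 fibroblast genes and later at none, and later at 10 of 21 pluripotency genes and earlier at none, beside 30.4% of all windows called earlier and 13.9% later. Timing was called earlier and later at 6 and 3 of the neural, 7 and 2 of the endoderm, 9 and 9 of the imprinted, 4 and 2 of the carbonic anhydrase and 2 and 5 of the replication genes. With profile medians at 0 the counts of earlier and later calls were 17 and 0 for the fibroblast, 0 and 13 for the pluripotency, 3 and 5 for the neural, 4 and 2 for the endoderm, 3 and 14 for the imprinted, 1 and 3 for the carbonic anhydrase and 1 and 9 for the replication genes. After quantile normalization the fibroblast and pluripotency counts were 17 and 0 and 0 and 11, and the balance was also toward later calls for the neural, imprinted, carbonic anhydrase and replication genes. The split of the neural and carbonic anhydrase genes thus turned with the scaling, and the equal split of the imprinted genes did not hold. In NPCs the allelic difference was called at 1 imprinted gene and 1 replication gene and at no gene of the other lists, beside 1.51% of all windows with 129 earlier and 1.34% with Cas earlier.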

How the data were processed

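Repli-Seq had been done on F1 hybrid mouse cells. Per the file headers, the deposited table, read here as log2, holds 1 value per allele, profile and window of 50 kb, computed by the authors as a log ratio of early to late S phase signal. Per the submitters' processing notes, reads were placed on mm10 with Bowtie2, SAMtools and bedtools, versions not stated. How reads were given to alleles, scaled and smoothed is not given in the sources used here, and neighbouring windows are not independent. Labels do not say that replicate profiles were separate cultures, so the line or embryo was the unit, with profiles averaged.

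Allelic differences and timing were computed per line and fitted with limma 3.58.1 in R 4.3.3 (lmFit, eBayes) on group means over 5 ESC lines in 2i, 2 feeder lines, 2 NPC lines and 4 embryos, two-sided, adjusted over 43941 autosomal windows. The same lines enter several groups unpaired. Windows were called at an adjusted p below 0.05 and a size of at least 0.5 (alleles) or 1 (timing). The code was tested on simulated data. Tables were handled with Python 3.11.15, numpy 2.4.6 and pandas 2.3.3, and figures drawn with matplotlib 3.10.9.

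The windows, gene lists and rules were chosen with earlier results of these data known. Regions joined windows of 1 direction over gaps of at most 2 windows, and the 10 of at least 200 kb with the largest summed size per direction were named by up to 3 nearest protein-coding genes (passing over Gm and Rik symbols), with list genes in reversed windows and the windows nearest the threshold. A neighbouring gene is not reported here. The alternatives were the scaling, the size asked, leaving out each line or embryo or embryos 1 and 3, the fitted unit with a replicate block or a random line block, the groups in the fit, the profiles used and the gap. Scaling for allele levels, and timing without embryos 1 and 3, were added after the data were seen. GC content and repeats of the windows were not analysed here.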

Additional observations from a re-analysis of the deposited data

Results flagged for a closer look

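In 40 groups (5 ESC lines or 4 embryos in each of the 20 named regions), 2 had a line or embryo far from the others by the gap to its nearest neighbour, and chance flags about 1 in 20 groups. In the Slit3 region embryo 4 had an allelic difference of -0.90, against -0.59 to -0.53 in the other 3 embryos. In the Gcg, Fap and Dpp4 region F123 had -1.20, against -1.93 to -1.77 in the other 4 ESC lines.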

How the results depend on the processing

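The 668 reversed windows became 656 with the median difference of each profile set to 0, 647 after quantile normalization (544 shared), 3665 at a size of 0.25 and 42 at a size of 1, 645 with all ESC profiles, 814 with 1 profile per line (555 shared) and 683 with medians, and leaving out 1 line or embryo gave 657 to 724. Joining over gaps of 0 or 4 windows gave 179 or 158 regions. Feeder windows called with the ESC sign were 203 at a size of 1 and 263 to 405 with 1 line or embryo left out, and NPC windows 7 at a size of 1, 5 without embryos 1 and 3, 4 with the NPC and ESC 2i lines alone, and 2 to 24 with 1 left out. A larger size asked keeps fewer windows by construction, and other causes were not tested. Calls of earlier timing in MEFs were 163 with profile medians at 0 and 239 to 256 with 1 left out. Calls of later timing were 157 with profile medians at 0, 145 after quantile normalization, 143 at a size of 0.5 and 87 to 102 with 1 left out. For NPC timing the ranges were 127 to 144 earlier and 145 to 169 later. With the replicate block there were 670 reversed windows (641 shared), 424 feeder and 21 NPC windows with the ESC sign, and 251 and 96 timing calls for MEFs and 137 and 159 for NPCs, the NPC allele count moving from 14 and so by a factor of 1.5. Over 55 pairs of groups the deviations of profiles with the same number correlated at -0.07 to 0.04, so the numbers do not pair the samples. With the line as a random block 416 feeder and 15 NPC windows were called. At the 20 peak windows the alternatives lost a feeder call 4 times (at Parp8, Pid1, Slc1a3 and Zhx2) and an NPC call once (at Trpc7), and gained an NPC call 8 times (at Car2, Cts3 and Tgs1). Depth is unknown, so its limit on small differences cannot be given.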

Other observations

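Several short runs of related genes lay in reversed windows and were chosen after their values were seen. The olfactory receptor genes Olfr1444 to Olfr1449 on chromosome 19 had 129 earlier in ESCs, with 0.74 ± 0.18 at Olfr1444 and 0.59 ± 0.14 at Olfr1449 (SD, n = 5 lines), and -0.55 ± 0.10 and -0.60 ± 0.16 in MEFs (SD, n = 4 embryos). Reg3a, Reg3b and Reg3d, antimicrobial lectins of the gut, share 1 window with 0.53 ± 0.54 in ESCs and -0.53 ± 0.16 in MEFs, so at this window the ESC lines varied as much as their mean. The beta-defensin genes Defb30, Defb42 and Defb43 share 1 window with the opposite order, -0.56 ± 0.38 in ESCs and 0.64 ± 0.08 in MEFs.

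A further 3 genes were also chosen after their values were seen. Kdr, a receptor for vascular endothelial growth factor, had 0.70 ± 0.31 in ESCs and -0.97 ± 0.10 in MEFs. Ghr, the growth hormone receptor, had -0.92 ± 0.43 in ESCs and 0.74 ± 0.16 in MEFs, and Hgf, a growth factor made by mesenchyme, had -1.04 ± 0.40 and 0.70 ± 0.12. The feeder means had the ESC sign at all 3, with 0.89, -1.33 and -0.97.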
